A study of Oryza sativa with 2 samples.

Results

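The 8 genes described here encode proteins of the large ribosomal subunit, 60SP0, RPL5A, RPL30, RPL39B, RPL39C, RPL7A-2, RPL18 and RPL27, out of 17905 rice genes that the platform annotation tied to at least 1 probe set. They were chosen by name, with their signals in this experiment known, and each was read from 1 probe set: 6 probe sets were listed in advance by their identifiers, and RPL39C and RPL7A-2 were read from the probe set of highest mean signal assigned to their genes. The values that follow were therefore part of the choice. They describe the genes and support nothing beyond that.

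Leaves of 6-week-old rice were profiled on the Affymetrix rice GeneChip, with 1 array for each of 2 genotypes. One genotype was 9311, an indica rice variety, and the other was 9311 carrying an LRK1 transgene, entitled LRK1 060615. The product of LRK1 is a membrane kinase whose outer part is built of leucine-rich repeats. Leaves came from 10 untreated greenhouse plants per genotype, and the labels do not say how the plants were combined. The sources used here name neither the promoter of the transgene nor the number of independent lines. The names used here did not place LRK1 on the array, and the transgenic label was therefore not checked against its own gene.

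A ribosome translates messenger RNA into protein, and its large subunit holds the site of peptide bond formation, the tunnel through which the new chain leaves and the stalk on which translation factors dock. Plant leaves make ribosomes of more than one kind, because chloroplasts and mitochondria keep their own, bacterial-type ribosomes beside those of the cytosol. Most plastid ribosomal proteins are encoded in the nucleus, so their transcripts are measured by the same array, and most cytosolic ribosomal proteins of plants are encoded by small families of near-identical genes.

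The group had been labelled as cytosolic, and the gene names went against that label for 2 of its members. The gene table gives RPL18 (LOC4334651) the synonym CL18 and RPL27 (LOC4327257) the synonym CL27, and CL names in rice stand for chloroplast large subunit proteins. The other 6 carry names of cytosolic ribosomal proteins. The division rests on names and not on signals, and the 2 sets are described separately.

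Signals are given as deposited, as log2 values made with the MAS5 algorithm, together with the same value on the linear scale, and every ratio is the log2 signal of the transgenic array minus that of the control array. A gene counted as lower or higher where both arrays reached a floor, taken as the median over both arrays of the log2 signals of the probe sets, leaving out array controls (5.40, or 42.1 on the linear scale), and the signals differed at least 2-fold. Of the 17905 genes, 13526 reached the floor on both arrays, and of these 1501 (11.1%) were past 2-fold in the lower direction and 923 (6.82%) in the higher one, with a median ratio of 0.02. Centring on the bacterial spikes instead gave 2541 lower and 408 higher genes and a median of -0.30. With 1 array per genotype there is no replicate check, no test was run and no error can be given. Each statement compares these arrays, and their number limits the precision. In whole leaves, fewer cells of a type and less RNA per cell cannot be told apart.

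On the transgenic array, 5 of the 8 genes were lower by at least 2-fold and 0 were higher by that much. All 8 reached the floor on both arrays. The 6 genes with cytosolic names all had negative ratios, from -1.88 to -0.81 with a median of -1.63, and the 2 with plastid names had positive ones. Over all 8 the median ratio was -1.54. Since the same contrast was used to choose the genes, nothing is read from their share against the 11.1% of all genes.

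**Figure D1:**
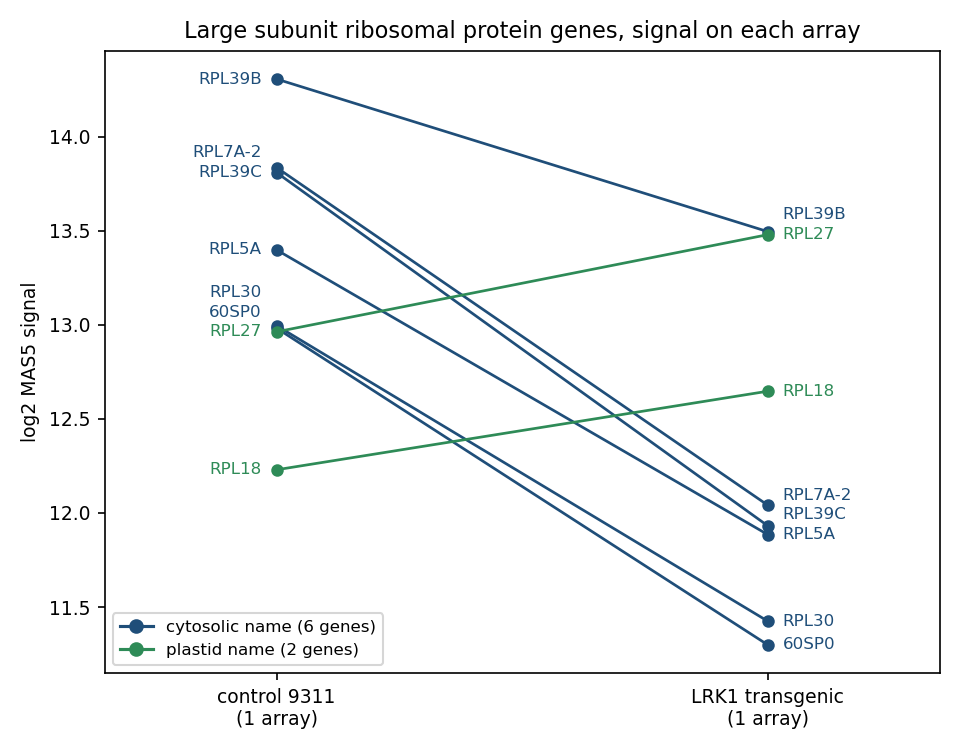
Log2 MAS5 signal (vertical axis) of the 8 large subunit genes on the control 9311 array and the LRK1 transgenic array, 1 point per gene and array, with a line joining the points of a gene. The lines of the 6 genes with cytosolic names slope down, RPL39B least (14.31 to 13.50), and the lines of RPL18 (12.23 to 12.65) and RPL27 (12.96 to 13.48) slope up; heights of different genes are not comparable, because each probe set binds with its own strength.

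60SP0 (LOC4344590) encodes P0, the protein that anchors the acidic P proteins and so forms the base of the stalk that recruits elongation factors. Its signal was 8093 (log2 12.98) on the control array and 2519 (log2 11.30) on the transgenic array. The transgenic signal was thus 3.21-fold lower, a log2 ratio of -1.68. Of the 13526 genes measured on both arrays, 3.68% had a lower ratio than 60SP0.

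RPL5A (LOC4325100) encodes a protein that binds the smallest ribosomal RNA of the large subunit and enters the subunit with it during assembly. It had a signal of 10798 (log2 13.40) on the control array against 3782 (log2 11.88) on the transgenic array, 2.86-fold lower, with a log2 ratio of -1.51. Among the 5 genes past 2-fold it lay nearest to the threshold, inside it by 0.51 on the log2 scale. Its copy RPL5B, the next protein-coding gene on the same chromosome in assembly ASM3414082v1, had no probe set assigned in the annotation used here, so whether the RPL5A probe set also binds RPL5B transcripts was not tested.

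RPL30 (LOC4324441) encodes a small RNA-binding protein of the large subunit that in yeast also represses the splicing of its own transcript. Its signal was 8168 (log2 13.00) on the control array and 2749 (log2 11.42) on the transgenic array. This is a 2.97-fold lower transgenic signal and a log2 ratio of -1.57. In the same assembly the annotated span of RPL30 contains 3 small nucleolar RNA genes, a class of RNA that guides chemical modification of ribosomal RNA, whereas the spans of the other members contain 0. The array's poly-A primed labelling is not made to measure such RNAs, and they are not analysed here.

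RPL39 is a very short basic protein that lines the exit tunnel, and 2 of its rice copies are among the members. RPL39C (LOC9268459) had a signal of 14357 (log2 13.81) on the control array and 3906 (log2 11.93) on the transgenic array, 3.68-fold lower. Its log2 ratio of -1.88 was the lowest of the 8. RPL39B (LOC4331014) had a signal of 20266 (log2 14.31) on the control array and 11550.3 (log2 13.50) on the transgenic array, 1.75-fold lower, with a log2 ratio of -0.81. It was the member just outside the 2-fold threshold, by 0.19 on the log2 scale, and it passed the threshold when the arrays were brought together by quantile normalization (-1.02), by loess (-1.01) or by centring on the bacterial spikes (-1.15). A further copy, RPL39A, had no probe set assigned.

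The ratios of the 2 RPL39 copies differed by 1.07 on the log2 scale, or 2.10-fold. Whether the copies differ was not tested, since both ratios were known when the members were chosen and each genotype has 1 array. The RPL39C probe set ends in _s_at, which marks probes shared by several transcripts, so its signal may not belong to RPL39C alone.

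RPL7A-2 (LOC4347522) encodes one form of RPL7A, a protein that binds ribosomal RNA on the outer side of the large subunit. Its signal was 14625 (log2 13.84) on the control array and 4214 (log2 12.04) on the transgenic array. The transgenic signal was 3.47-fold lower, with a log2 ratio of -1.80. Its copy RPL7A-1, which is not a member, had a log2 ratio of -1.15 and was 2.21-fold lower. The ratios of the copies differed by 0.65 on the log2 scale, a difference that was not tested either.

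The genes with plastid names had ratios of the opposite sign. In bacteria L18 binds the smallest ribosomal RNA of the large subunit and belongs to the same protein family as the cytosolic RPL5. RPL18 had a signal of 4803 (log2 12.23) on the control array and 6415 (log2 12.65) on the transgenic array. This was 1.34-fold higher, a log2 ratio of 0.42, and short of the 2-fold threshold.

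In bacteria L27 reaches into the site of peptide bond formation, and the cytosolic protein called RPL27 is not its counterpart. RPL27 (CL27) had a signal of 7985 (log2 12.96) on the control array and 11422 (log2 13.48) on the transgenic array, 1.43-fold higher, with a log2 ratio of 0.52. Only this gene and RPL39B among the members had further probe sets, which the choice of members did not use but which share the RNA and the arrays. Those of RPL27 had log2 signals of 11.42 and 12.24, and of 9.16 and 10.31, on the control and transgenic arrays. Their ratios were 0.82 and 1.15, so all 3 probe sets were higher on the transgenic array and the dimmest passed 2-fold (2.22-fold). The other probe set of RPL39B had signals of 14.35 and 13.43 and a ratio of -0.92, close to the -0.81 of the first.

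**Figure D2:**
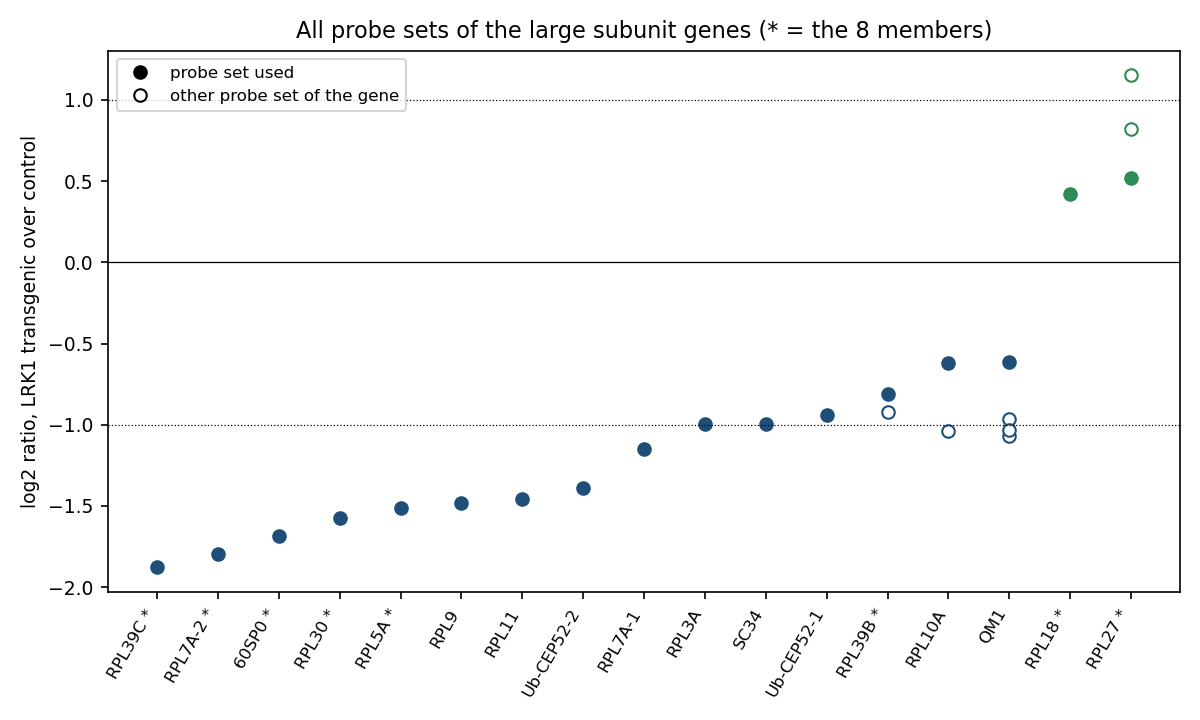
Log2 ratio (transgenic minus control, vertical axis) of every probe set assigned to the 8 members, marked with an asterisk, and to the other 9 listed cytosolic large subunit genes. Filled points are the probe sets used and open points the remaining ones, blue for cytosolic and green for plastid names, and dotted lines mark 2-fold; all blue points lie below 0, and all green points, RPL18 at 0.42 and RPL27 at 0.52, 0.82 and 1.15, lie above it.

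The members are among the brighter probe sets of the array, so they were also set beside the 1877 genes whose mean log2 signal was at least that of the dimmest member (12.14). Among these bright genes 160 (8.52%) were at least 2-fold lower and 113 (6.02%) at least 2-fold higher, with a median ratio of 0.23. The share of bright genes with a still lower ratio was 1.12% for RPL39C, 1.39% for RPL7A-2, 1.76% for 60SP0, 2.40% for RPL30 and 2.66% for RPL5A. For RPL39B it was 11.1%. RPL18 and RPL27 lay well inside the bulk, with 61.5% and 68.9% of bright genes below them.

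A search by gene name listed 9 further cytosolic large subunit genes, and genes without such a name were not listed. All 9 had negative ratios, with a median of -0.998 and a range of -1.48 to -0.61, and 4 were at least 2-fold lower. The lowest were RPL9 at -1.48 and RPL11, which enters the ribosome together with RPL5, at -1.46. The only probe set of RPL9 is of the _s_at type, so its signal may not belong to RPL9 alone. The highest were RPL10A, a protein of the mobile stalk beside the exit site of transfer RNA, at -0.62 and QM1, a form of the late-joining protein L10, at -0.61. Both were read from probe sets of the _x_at or _s_at type, whose probes may be shared with further transcripts. With plain _at probe sets RPL10A was at -1.04 and QM1 at -1.03, past 2-fold, but these probe sets were far dimmer. Their log2 signals on the control and transgenic arrays were 8.24 and 7.20 for RPL10A and 7.11 and 6.08 for QM1. The probe sets used had 14.03 and 13.41 for RPL10A and 14.69 and 14.08 for QM1. The remaining QM1 probe sets were at -0.96 (14.05 and 13.08) and at -1.07 (5.77 and 4.70). The last of these was below the floor on the transgenic array. Counted with the 6 members, all 15 listed cytosolic large subunit genes were negative, with a median of -1.39, and 9 were past 2-fold. Of the 13526 genes at the floor on both arrays, 6608 were negative and 1501 (11.1%) were at least 2-fold lower. Among the 1877 bright genes the counts were 691 and 160 (8.52%). The lists were chosen with earlier results known, so nothing is read from this comparison.

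RPL3A (-0.998) and SC34 (-0.996), the other L10 gene, lay just under the 2-fold threshold, at 1.997-fold and 1.994-fold. Their calls, and that of Ub-CEP52-1 (-0.94), a ubiquitin fused to ribosomal protein L40, depended on scaling, and 7 of the 9 genes were at least 2-fold lower under each of quantile normalization, loess, median centring and spike centring. The other L40 fusion, Ub-CEP52-2, had a ratio of -1.39. Among copies within these 9 genes, the L10 genes differed by 0.38 and the L40 fusions by 0.45 in size, both less than the RPL39 pair. The L10 difference rests on the _s_at probe set of QM1. In 121 genes with 2 probe sets as bright as the dimmest member, the ratios of the 2 differed by 0.79 at the 95th percentile. None of the differences between copies was tested.

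The small subunit, which reads the message, was measured by 11 genes with usable names. All 11 had negative ratios, with a median of -1.24 and a range of -1.70 to -0.73, and 8 were at least 2-fold lower. Of all 13526 genes at the floor on both arrays, 6608 were negative and 11.1% were at least 2-fold lower. This list too was chosen with earlier results known, so nothing is read from the comparison. RPS15 (-1.70) and RPS26 (-1.62) were lowest, and RPS7 (-0.89) and RPS10-1 (-0.73) highest. That order holds for the brightest probe set of each gene: RPS21 was at -1.87 by the median over its probe sets, and rps20 at -0.43 with plain _at probe sets. The range of the 6 cytosolic members, -1.88 to -0.81, overlapped with that of the small subunit genes along most of its length.

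Beyond RPL18 and RPL27, ASL1, known in rice as a plastid small subunit protein, and a gene named rpl5 (LOC4331459), whose compartment the gene table does not give, were the other ribosomal protein genes listed with them. They had ratios of 0.73 and 0.87, neither past 2-fold. These 4 genes were higher on the transgenic array, by less than 2-fold. The elongation factors EF-TsMt (-2.70) and mEF-G (-0.92), with organelle-type names that do not state the plastid, were lower. Leaf markers had positive ratios, like the 4 ribosomal protein genes. So did 1186 of the 1877 bright genes, whose median ratio was 0.23, and nothing is read from this likeness. These markers were RBCS-C, the small subunit of Rubisco, the Rubisco activase gene rca and the chlorophyll-binding protein genes CAB2R, RCABP89 and RCABP69. Their log2 signals were at least 14.77 on both arrays and their ratios ran from 0.46 to 0.72. RBCS-A was below the floor on both.

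**Figure D3:**
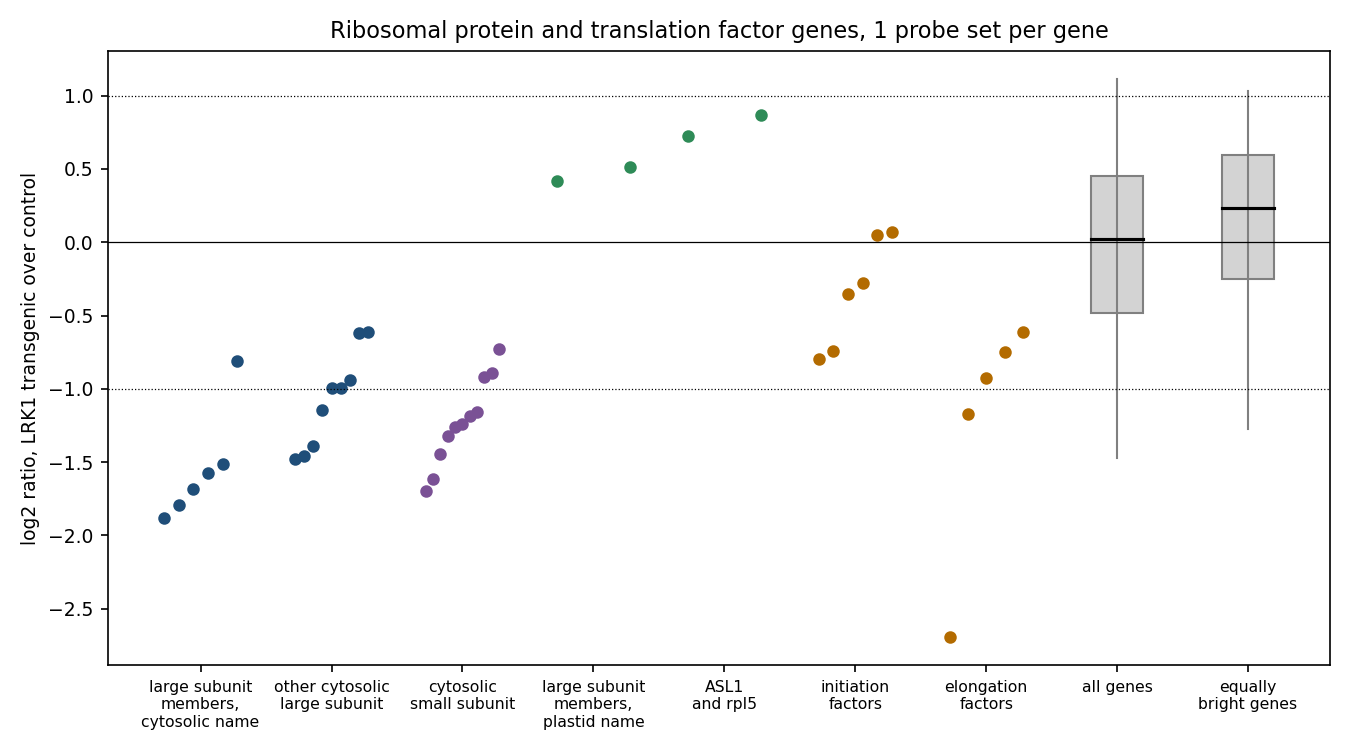
Log2 ratio (transgenic minus control, vertical axis) of each gene in 7 lists of ribosomal protein and translation factor genes, 1 point per gene, sorted within a list. The grey boxes show all 13526 genes and the 1877 bright genes, with the median, the 25th to 75th percentiles (-0.48 to 0.45 and -0.25 to 0.59) and lines to the 5th and 95th (-1.47 to 1.12 and -1.28 to 1.04). Dotted lines mark 2-fold, and with the probe sets used all plotted cytosolic ribosomal protein genes lie at or below -0.61.

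Factors that work with the ribosome were read in the same way. Initiation factors bring the message and the subunits together. Of 6 genes listed by an initiation factor name, 0 were past 2-fold in either direction and the median ratio was -0.32. Whether each of them, EIF4A3B among them, works in initiation was not checked. The lowest were the RNA helicase eIF-4A-1 (-0.79) and eIF3k (-0.74). The highest were EIF4A3B (0.07) and the scaffold eIF-4G (0.05), whose sign became negative under loess, median centring and spike centring. Of 5 elongation factor genes, all were negative with a median of -0.92, and 2 were at least 2-fold lower. Over all genes at the floor on both arrays 11.1% were lower by that much, and both factor lists were chosen with earlier results known. The elongation factor list was not divided by compartment, and its median is the value of the organelle-named mEF-G. EF-TsMt, named as an organelle exchange factor, had the lowest ratio and EF-1-beta, the cytosolic exchange factor, followed at -1.17. EF-1-alpha, which delivers transfer RNA to the cytosolic ribosome, was at -0.75. EF-4, whose compartment was not established here, was at -0.61.

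Pairs of signals were compared with the median of the 5 members past 2-fold (log2 13.40 in control leaves and 11.88 in transgenic leaves). The measure was Euclidean distance over the 2 arrays, and genes without a usable name were left out beforehand. Among the named genes outside the ribosomal lists, the 3 closest were then taken. They were gKOCIII, also named OC-II, a cysteine protease inhibitor of the oryzacystatin type (ratio -1.06, distance 0.321), OsPDIL2-2, a protein disulfide isomerase-like protein (-1.81, distance 0.321), and GPB-LR, also named RACK1A (-1.49, distance 0.330). With 1 value per genotype, a small distance says that the signals were alike on these arrays and no more.

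The direction of all 8 members was the same under each of the 7 other scalings and probe set choices that yielded a value for them. Across these, 60SP0 ranged from -2.02 to -1.68, RPL5A from -1.85 to -1.51, RPL30 from -1.91 to -1.57, RPL39C from -2.22 to -1.87 and RPL7A-2 from -2.13 to -1.79. These 5 stayed past 2-fold throughout, although RPL39C had no probe set of the plain _at type and could not be read in that setting. None of the 5 had a further probe set, so the probe set choices could not change their values. For them only the changes of scaling and the pseudocount could. RPL18 ranged from 0.08 to 0.43 and RPL27 from 0.18 to 0.82. The lowest value of every member came from centring on the spikes, which takes 0.34 off each ratio.

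**Figure D4:**
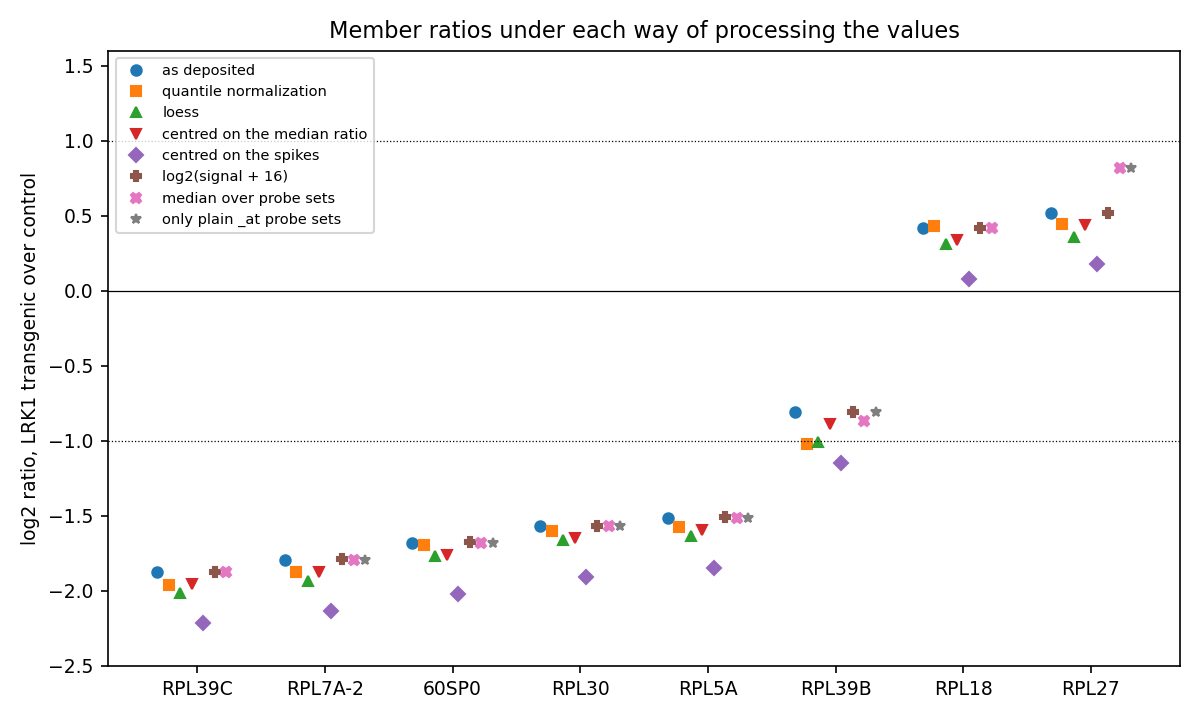
Log2 ratio (transgenic minus control, vertical axis) of each of the 8 members under 8 ways of processing the values, 1 symbol per setting, with dotted lines at 2-fold. RPL39B is the single member whose symbols lie on both sides of a dotted line (-0.81 as deposited, -1.15 with spike centring); RPL18 and RPL39C have no symbol for plain _at probe sets.

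Several measures of the arrays themselves differed beside these ratios, and their part in the ratios was not tested. The median log2 signal of the 57258 probe sets other than controls was 5.21 for the control array and 5.56 for the transgenic one, and the 63 bacterial spike probe sets had a median ratio of 0.34. The ratio of 3' to 5' signal, which grows as RNA is less intact, went from 9.45 in control RNA to 6.95 in transgenic RNA with the actin probe sets, and likewise from 3.87 to 2.16 with GAPDH, from 2.05 to 1.62 with cyclophilin and from 0.831 to 0.782 with ubiquitin. It was thus lower on the transgenic array in these pairs, and in the other actin pair it was 16.4 and 16.2.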

How the data were processed

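Each array's deposited column holds the log2 signal of every probe set, which, per the submitters' processing notes, the authors made with MAS5. The sources used here give neither its version nor its scaling target. Per the labels' protocols, labelling started from the poly-A tail, which weights the 3' end of transcripts. Signals were used as deposited. Genes came from the platform annotation and names from the gene table of assembly ASM3414082v1 (Oryza sativa Japonica), whose coordinates are not printed because the array's build is not given. A gene was read from its probe set of highest mean signal. Probe sets ending in _s_at, _x_at or _a_at can bind several transcripts. Members and lists were chosen with earlier results of these data known. Named genes were the 8 members, the 2 lowest and 2 highest ratios of each other list and the 3 nearest profiles among genes with a usable name. RPL3A, SC34, Ub-CEP52-1, Ub-CEP52-2, RPL7A-1, RPS21, rps20 and mEF-G were named after their values were seen. Sequences of the members are not analysed here. Alternatives covered scaling, floor, a pseudocount of 16, the fold and the probe set. Counting and scaling were tested on simulated data. Python 3.11.15, pandas 2.3.3 and statsmodels 0.14.6 (lowess, span 0.3) were used.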

Additional observations from a re-analysis of the deposited data

How the results depend on the processing

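Over 10 alternatives, 585 values were recomputed, of which 519 kept their direction and their side of 2-fold or, for counts of genes, stayed within 1.5 times the count as deposited, 52 newly passed it or grew beyond 1.5 times the count, 5 did the opposite and 9 changed sign. Some of the 519 could not change. A gene without a further probe set keeps its ratio under the probe set choices, and counts of negative ratios do not depend on the fold. No member changed sign, and the count of members at least 2-fold lower was 5 as deposited. It was 6 with quantile normalization, loess or spike centring, and 4 of 6 with plain _at probe sets alone. Under a 1.5-fold rule, 6 members were at least 1.5-fold lower. The sign changed for EIF4A3B (-0.051 with loess, -0.013 with median centring, -0.27 with spike centring), eIF-4G (-0.016, -0.032 and -0.29) and the median of all genes (-0.021, -0.056 and -0.30), in each case by subtracting a constant or trend from small ratios. Over all genes, the count at least 2-fold lower became 2541 with spike centring and 784 with a floor at percentile 75. The count at least 2-fold higher became 408 and 479 in these settings, and 1481 with a floor at percentile 25. Under the 1.5-fold rule, 2866 genes were at least 1.5-fold lower and 2576 at least 1.5-fold higher. Spike centring also made 2 initiation factors and 4 elongation factors at least 2-fold lower, the floor at percentile 75 left 1 such elongation factor, and rps20 was at -0.43 with plain _at probe sets. No paired analysis was possible because each genotype has 1 array, and for the same reason no array could be left out. All members lie far above the floor, and each fold rests on 1 array per genotype.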

Other observations

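RACK1, a scaffold protein that sits on the small ribosomal subunit, is encoded by 2 rice genes on the array, which were picked after their values were seen. RACK1A had log2 signals of 13.16 in control and 11.66 in transgenic leaves and a ratio of -1.49. RACK1B had 11.89 and 9.92 and a ratio of -1.98, so both were lower on the transgenic array. The 5 members past 2-fold ran from -1.88 to -1.51, and RACK1B lay just below that range and RACK1A just above it. The array also carries control probe sets for ribosomal RNA, which lacks a poly-A tail. Those for the small subunit RNA (18S) had ratios of 0.30 and 0.25, that labelled 28S 0.12, that labelled 25S -0.56 and that for 5.8S, whose signals of 5.47 and 4.71 lie around the floor, -0.76. The probe sets labelled 28S and 25S thus differed in sign, and whether they measure different RNAs was not checked. Spike centring, which takes 0.34 off each ratio, would make all of these ribosomal RNA ratios negative.

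The members were also set beside the protein-coding genes next to them in assembly ASM3414082v1. Of 16 such neighbours 10 had a probe set and 6 reached the floor on both arrays. None of these 6 was past 2-fold, and their ratios ran from -0.94 to 0.64 with a median of -0.20. Among seed storage protein genes, which mark another tissue, GLUA-2 (log2 11.11 and 11.60) and GLUB-5 (6.41 and 6.85) reached the floor on both arrays and the other 4 of 6 did not.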
